A study of Mus musculus with 6 samples.

Results

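Expression was followed here for 6 genes that are not part of the contractile machinery of muscle: 1700001O22Rik, Neto2, Cd24a, Cntnap2, Arl2bp and Cdc14a. They were chosen from the contrast described here, because each differed between heterozygous and wild-type mice with all arrays and with any 1 array left out, and because none is known mainly for a role in the sarcomere or in muscle metabolism. Each has 1 probe set, so they make up 6 of the 16492 gene probe sets on the array, and all 6 were among the 11544 bright enough to be tested. The absence of a muscle role is a matter of annotation and was not measured.

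The tissue was quadriceps, the large muscle at the front of the thigh, from 3 mice with a single working copy of the nebulin gene (heterozygous, nebulin +/-) and 3 with both copies (wild type, nebulin +/+), 1 Affymetrix array per mouse and no treatment. Nebulin, the product of Neb, is a giant protein of the thin filament, and the comparison asks what changes in muscle when a copy of its gene is missing. Of age, sex, strain and the design of the Neb allele, the labels say nothing. Neb itself measured 12.08, 11.73 and 11.94 on the log2 scale in heterozygous mice, against 12.17, 12.09 and 12.16 in wild-type mice, a log2 difference of -0.22 ± 0.08 (SE) that did not pass (limma, adjusted p = 0.161). It was -0.31 and passed without heterozygous mouse 1 (limma, adjusted p = 0.0399), and was -0.13 without heterozygous mouse 2 (0.307). Where its probes lie relative to the altered part of Neb was not stated, so this value does not check the genotypes. All 10 skeletal muscle markers listed for the tissue were measured above the brightness limit, and none passed (limma; 0 at an adjusted and 0 at an unadjusted p under 0.05). Acta1 and Mylpf measured 14.81 and 14.55 in every mouse, and 14.81 was the highest value on each array. So close to this ceiling a difference could hardly show, and the lack of a call for such genes does not measure muscle content. The smallest p values among them were those of the fast myosin genes Myh4 and Myh1, with differences of -0.26 and -0.18 (limma, adjusted p = 0.281 and 0.291). Without heterozygous mouse 2 they were -0.13 and -0.10, without heterozygous mouse 1 that of Myh4 was -0.39, and without wild-type mouse 3 that of Myh1 was -0.11. Deposited values had a common range of 5.56 to 14.81, and arrays correlated at 0.9955 to 0.9971 within a genotype and 0.9907 to 0.9937 between genotypes across tested probe sets. The number of arrays limits the precision of all values. The RNA came from whole muscle, so fewer cells of a type and less transcript per cell cannot be told apart.

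The 6 genes belong to unrelated systems. Neto2 is a transmembrane partner of kainate-type glutamate receptors in neurons, where it shapes the receptor's gating, and Cntnap2 (CASPR2) is a neurexin-like adhesion protein that gathers potassium channels beside the nodes of myelinated axons. Cd24a, the heat-stable antigen, is a short and heavily glycosylated protein anchored to the cell surface by lipid, best known from immature lymphocytes and epithelia and as a ligand of P-selectin and Siglec-G. Arl2bp (BART) binds the small GTPases ARL2 and ARL3 in their active form and is tied to cilia and mitochondria. Cdc14a is a protein phosphatase related to yeast Cdc14, which drives the exit from mitosis in budding yeast. 1700001O22Rik carries a clone name, is listed as protein-coding by RefSeq, and no function is stated for it in the tables used.

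Of the 6 genes, 4 were lower in heterozygous muscle (1700001O22Rik, Neto2, Cd24a and Arl2bp) and 2 were higher (Cdc14a and Cntnap2). These differences chose the genes and are given as a description without a test. Each of the 6 had an adjusted p under 0.05 in all 7 fits (limma, all mice and each mouse left out), as did 55 of the 11544 tested probe sets (0.476%: 33 higher, 0.286%, and 22 lower, 0.191%). With all mice, 359 probe sets passed (3.11%), 177 higher (1.53%) and 182 lower (1.58%), and 572 (4.95%) passed with the mouse number as a block. An unadjusted p under 0.05 was found for 20.5% of tested probe sets. The 2 groups did not overlap for any of the 6 genes, nor for 26.3% of all tested probe sets.

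**Figure D1:**
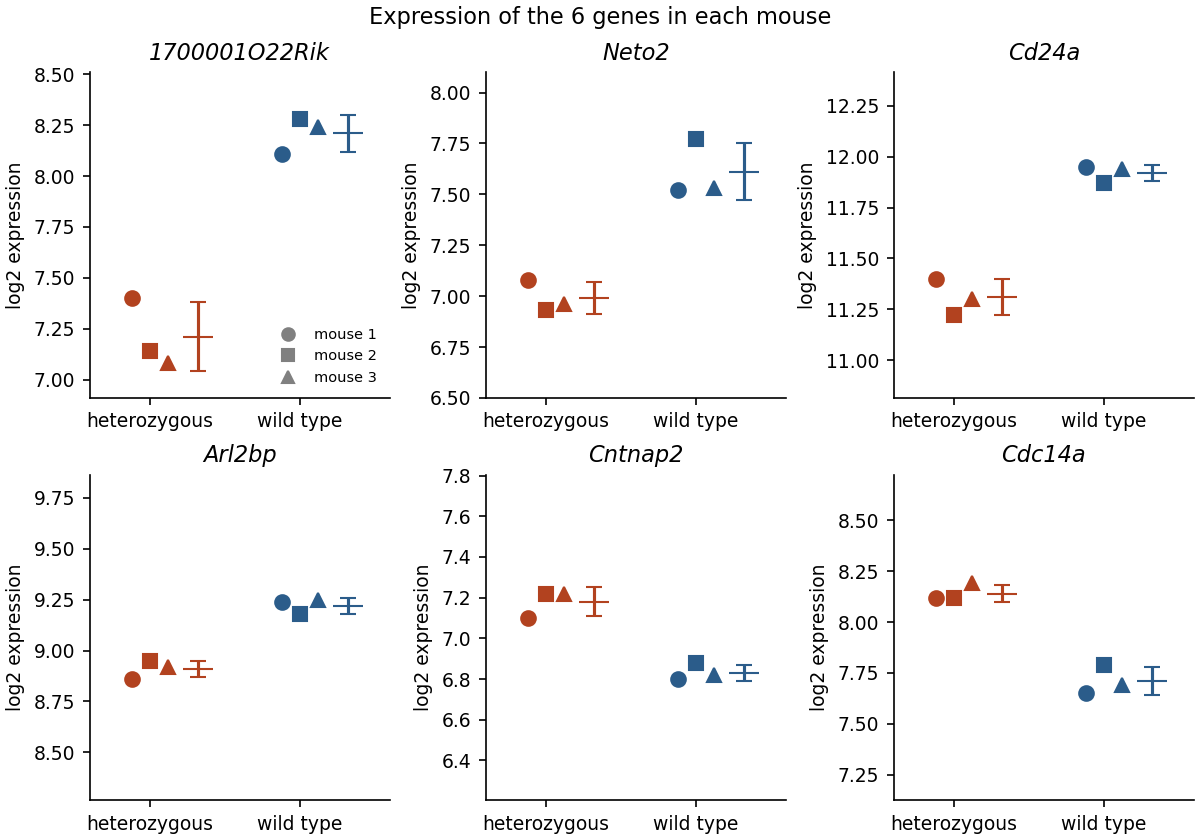
Log2 expression of each gene in each mouse, heterozygous on the left and wild type on the right, with the shape of the symbol marking the mouse number and the group mean ± SD beside the points. Every panel spans the same number of log2 units, so that the gap between the groups can be compared: it was 0.71 for 1700001O22Rik and 0.22 for Cntnap2.

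1700001O22Rik had the largest difference of the 6. It measured 7.40, 7.14 and 7.08 on the log2 scale in heterozygous mice 1 to 3, against 8.11, 8.28 and 8.24 in wild-type mice 1 to 3. All heterozygous values lay below all wild-type values, and mouse 1 was the heterozygous mouse nearest to the wild type. The means were 7.21 ± 0.17 in heterozygous mice and 8.21 ± 0.09 in wild-type mice (n = 3 each, SD), a log2 difference of -1.0 ± 0.08 (SE), or 2.00-fold lower. By size it was number 2 of the 182 lower probe sets and number 9 of the 55 that passed in every fit. The gap between the groups, 0.71, was 2.20 times the wider of the 2 within-group ranges.

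Neto2, the kainate receptor partner, measured 7.08, 6.93 and 6.96 in heterozygous mice, against 7.52, 7.77 and 7.53 in wild-type mice. The groups were apart by 0.44, and here the spread was wider among wild-type mice, of which mouse 2 was highest. The log2 difference was -0.62 ± 0.07 (SE), 1.53-fold lower. It moved to -0.53 without wild-type mouse 2 and lay between -0.66 and -0.59 without any other mouse.

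Cd24a, the surface glycoprotein, measured 11.40, 11.22 and 11.30 in heterozygous mice, against 11.95, 11.87 and 11.94 in wild-type mice. The wild-type values lay within 0.07 of each other and the heterozygous values within 0.18, with a gap of 0.47 between them. The means of 11.31 ± 0.09 in heterozygous mice and 11.92 ± 0.04 in wild-type mice (n = 3 each, SD) gave a log2 difference of -0.61 ± 0.05 (SE), 1.53-fold lower. It was number 12 of the 182 lower probe sets, next to Neto2 at number 11.

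Arl2bp, the ARL2-binding protein, had a smaller difference with little spread. It measured 8.86, 8.95 and 8.92 in heterozygous mice, against 9.24, 9.18 and 9.25 in wild-type mice, a log2 difference of -0.31 ± 0.04 (SE), 1.24-fold lower. Its gap of 0.23 was 2.70 times the wider within-group range, the highest ratio of the 6, although its difference ranked only 64 among the 182 lower probe sets. Among the 55 that passed in every fit it ranked 51 by size.

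Cdc14a, the phosphatase, was the larger of the 2 rises. It measured 8.12, 8.12 and 8.19 in heterozygous mice, against 7.65, 7.79 and 7.69 in wild-type mice, and the groups were apart by 0.33. The log2 difference was 0.44 ± 0.05 (SE), 1.35-fold higher, number 53 of the 177 higher probe sets.

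Cntnap2, the axonal adhesion protein, measured 7.10, 7.22 and 7.22 in heterozygous mice, against 6.80, 6.88 and 6.82 in wild-type mice. The log2 difference was 0.35 ± 0.05 (SE), 1.27-fold higher, with a gap of 0.22 between the groups. The brightness limit for testing was 6.74, so its wild-type mean of 6.83 ± 0.04 (SD, n = 3) stood just above it, and a limit at the 50th percentile of signal left the gene out. The other 5 genes passed both limits. No detection calls were used here, and how much of the Cntnap2 signal in wild-type muscle is background was not tested.

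Leaving out a mouse changed no direction. The difference of 1700001O22Rik ranged from -1.1 to -0.94, that of Cd24a from -0.66 to -0.57, that of Arl2bp from -0.34 to -0.29, that of Cdc14a from 0.41 to 0.48 and that of Cntnap2 from 0.33 to 0.39. For 5 of the 6 genes, all but Arl2bp, heterozygous mouse 1 lay nearest to the wild-type mean, though in Cdc14a it equalled mouse 2 to 2 decimals. Wild-type mouse 2 lay nearest to the heterozygous mean in 4 genes, the exceptions being 1700001O22Rik and Neto2. By the largest adjusted p over the 7 fits, which decided membership, Cntnap2 stood at the edge at 0.0489, level with Btg2, Mt2, Scin and Timp4. The nearest named genes outside were Tsc22d3 at 0.0511 and Comtd1 at 0.0516, and 1700001O22Rik was farthest inside at 0.019.

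**Figure D2:**
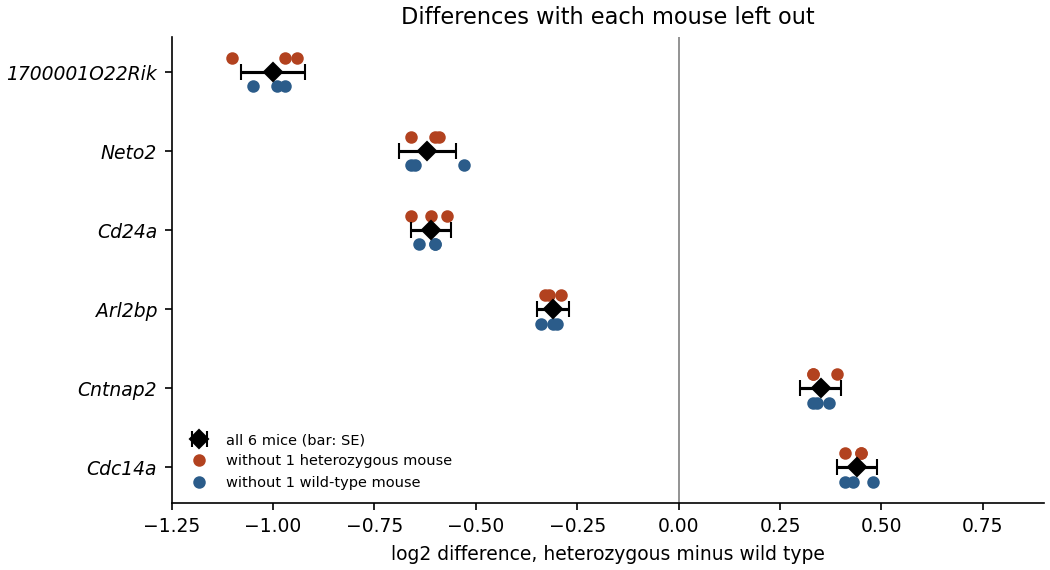
Log2 difference, heterozygous minus wild type, for each gene with all 6 mice (diamond, bar showing SE) and with 1 heterozygous or 1 wild-type mouse left out (circles). The 4 lower genes stay left of 0 and the 2 higher genes right of it, with Neto2 moving most for its size, to -0.53 without wild-type mouse 2.

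The 6 profiles were compared by the root mean square (RMS) difference of mean-centred log2 values over the 6 arrays, where 0 is an identical profile. This is a description, since the choice of genes fixes most of it. Cdc14a and Cntnap2 were nearest to each other, at 0.06, and Neto2 and Cd24a followed at 0.11. With its sign turned, Arl2bp was as near to Cntnap2, at 0.06. 1700001O22Rik, with its larger difference, was 0.21 from Neto2 and 0.22 from Cd24a.

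Among all other tested and named genes, the profile nearest to 1700001O22Rik was that of Odc1, which starts polyamine synthesis, at an RMS difference of 0.15, followed by Smox, the spermine oxidase, at 0.19. Odc1 shared the high heterozygous mouse 1, with 9.50, 8.91 and 8.71 in heterozygous mice against 9.88, 9.97 and 9.97 in wild-type mice. Neto2 was nearest to Npc1, the lysosomal cholesterol transporter (0.10), and to the phosphodiesterase gene Pde7a (0.11). Cd24a was nearest to Fgl2, a fibrinogen-like protein, and Bdh1, a ketone body enzyme (both 0.06). Arl2bp was nearest to Asb5 and Schip1 (both 0.04). Cdc14a was nearest to Fam107a (0.04) and Camk2n1, an inhibitor of CaM kinase II (0.06). Fam107a measured 6.66, 6.71 and 6.70 in wild-type mice, all below the brightness limit of 6.74. In heterozygous mice it measured 7.14, 7.10 and 7.14, and only these values brought it into the test. How much of its wild-type signal is background was not tested. Cntnap2 was nearest to the transcription regulator genes Jdp2 (0.03) and Irf2bpl (0.04).

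Position was a property that did not enter the choice. The genes lie on chromosomes 2, 8, 10, 6 and 3, with Neto2 and Arl2bp both on chromosome 8 but among different neighbours. The 5 named and tested genes on either side of each were taken in RefSeq's gene order on GRCm38.p6, 60 in all. Of these 1 passed (limma, adjusted p under 0.05), which is 1.67% against 3.11% of all tested probe sets, and 16 had an unadjusted p under 0.05, which is 26.7% against 20.5%. The median difference of the 60 was 0.01, beside -0.0 for all tested probe sets, and none of them moved by more than 0.30 on the log2 scale.

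The gene that passed was Ntmt1, the next gene after 1700001O22Rik on chromosome 2, which encodes a methyltransferase that modifies the amino end of proteins. It measured 7.88, 7.91 and 7.76 in heterozygous mice, against 8.14, 8.22 and 8.09 in wild-type mice. All heterozygous mice lay below all wild-type mice, and the log2 difference was -0.30 ± 0.05 (SE; limma, adjusted p = 0.0245), 1.23-fold lower. It missed the threshold with heterozygous mouse 3 left out (limma, adjusted p = 0.0771), and likewise for wild-type mouse 1 (0.0796) or 2 (0.078). RefSeq places the pair on opposite strands with their starts facing each other, as the coordinates of their promoter windows show. The other 9 neighbours of 1700001O22Rik had differences from -0.04 to 0.07.

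Promoter sequence is shown for 1700001O22Rik and Ntmt1, which lie beside each other and were both lower, and for Neto2 and Cntnap2 as a lower and a higher gene for comparison. It was taken from RefSeq's windows on GRCm38.p6, which run from 250 bases before to 50 bases after an annotated start. Windows were found for 5 of the 6 genes (not Cd24a), 10 in all, since several genes have more than 1 annotated start. The 250 upstream bases of the most 5′ window are printed. They lie at chr2:30803665-30803914 on the minus strand, chr2:30807718-30807967 on the plus strand, chr8:85700925-85701174 on the minus strand and chr6:45059811-45060060 on the plus strand. Capitals mark GGGCGG, the GC box that binds SP1-like factors, or its reverse complement.
1700001O22Rik: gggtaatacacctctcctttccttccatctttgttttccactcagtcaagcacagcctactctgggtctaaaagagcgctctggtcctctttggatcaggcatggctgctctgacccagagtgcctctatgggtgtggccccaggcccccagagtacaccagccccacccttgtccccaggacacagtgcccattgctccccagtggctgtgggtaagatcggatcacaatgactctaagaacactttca
Ntmt1: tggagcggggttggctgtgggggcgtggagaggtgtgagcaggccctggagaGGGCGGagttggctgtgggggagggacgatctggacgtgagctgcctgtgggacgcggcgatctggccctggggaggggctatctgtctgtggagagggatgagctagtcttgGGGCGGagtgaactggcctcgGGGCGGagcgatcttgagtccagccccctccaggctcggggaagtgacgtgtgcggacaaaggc
Neto2: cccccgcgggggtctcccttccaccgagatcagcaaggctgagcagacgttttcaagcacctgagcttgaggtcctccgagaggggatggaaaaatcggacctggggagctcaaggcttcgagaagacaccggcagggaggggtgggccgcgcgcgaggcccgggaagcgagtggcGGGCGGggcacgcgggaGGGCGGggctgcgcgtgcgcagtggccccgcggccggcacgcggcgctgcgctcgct
Cntnap2: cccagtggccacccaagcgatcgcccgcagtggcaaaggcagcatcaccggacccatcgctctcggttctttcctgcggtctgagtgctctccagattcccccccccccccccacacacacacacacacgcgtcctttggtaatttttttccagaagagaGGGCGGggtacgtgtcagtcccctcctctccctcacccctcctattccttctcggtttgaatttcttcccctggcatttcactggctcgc

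The windows differed in base composition. The printed 1700001O22Rik window had 56.3% G and C and a ratio of observed to expected CpG of 0.08, while the Neto2 window had 72.0% and 0.94 and the Cntnap2 window 59.7% and 0.57. The median over all 32851 windows was 52.7% and 0.38. Arl2bp had a window with 64.0% G and C and a CpG ratio of 0.85, and the most 5′ Cdc14a window had 45.3% and 0.19. Windows at other starts of the same genes differed from these. They had 58.7% and 0.59 for 1700001O22Rik, 42.7% and 0.0 for Neto2, and 46.3% and 0.19 for Cntnap2. For Cdc14a they had 48.3% and 0.41, and 61.7% and 0.43. Which start is used in muscle was not tested. On either strand, GGGCGG was found in 4 of the 10 windows, in genes that were lower (1700001O22Rik, at its other start, and Neto2) and higher (Cntnap2 and Cdc14a), and in 35.7% of all windows. TATAAA was in 0 of the 10 (13.6% of all windows), as were the E-box CACGTG (7.15%), the cyclic AMP element TGACGTCA (1.79%) and the D-box TTATGTAA (0.94%). The patterns were counted separately, and CACGTG and TGACGTCA share the letters ACGT. None of these patterns was in a window of Arl2bp.

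1700001O22Rik is also on the chromosome of Neb. Between them in gene order lie 86 named and tested genes, of which 2 were higher and 4 lower (limma, adjusted p under 0.05), with a median difference of 0.0. These 6 are 6.98% of the 86, against 3.11% of all tested probe sets. Fitted with the mouse number as a block, 5 of the 86 passed, 5.81% against 4.95% of all tested probe sets. None of the 10 neighbours of Neto2, Cd24a, Cntnap2, Arl2bp or Cdc14a passed (limma; 3, 3, 4, 1 and 4 of 10 at an unadjusted p under 0.05, beside 20.5% of all tested probe sets). The next gene after Neto2, Itfg1, had a difference of -0.15 ± 0.04 (SE; limma, adjusted p = 0.0671). With the mouse number as a block 4 of the 60 passed, 6.67% against 4.95% of all tested probe sets: Ntmt1, Qrsl1 after Cd24a (difference -0.18, adjusted p = 0.0363), and S1pr1 and Frrs1 on either side of Cdc14a (0.24 and -0.20, adjusted p = 0.0362 and 0.0418). Without the block S1pr1 and Frrs1 passed with heterozygous mouse 1 left out (limma, adjusted p = 0.0305 and 0.0343). Frrs1 measured 6.76, 6.64 and 6.65 in heterozygous mice, around the brightness limit of 6.74, against 6.91, 6.81 and 6.92 in wild-type mice. Its entry into the test rested on its wild-type values.

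**Figure D3:**
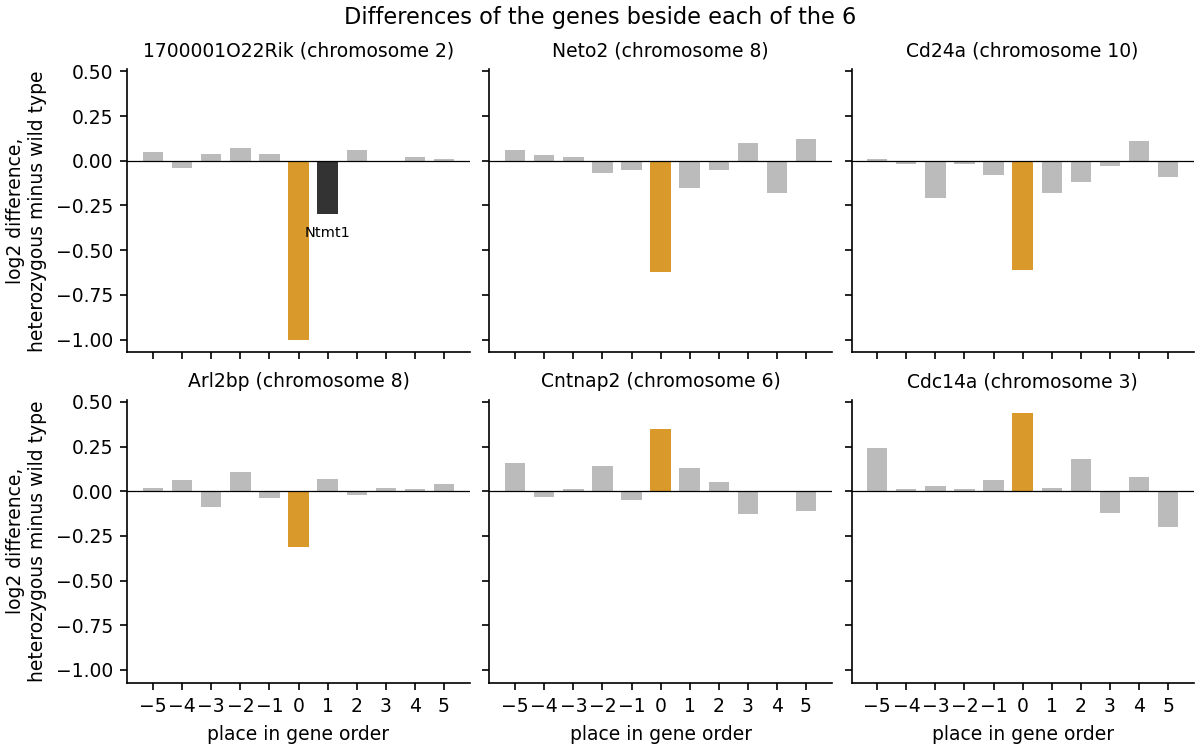
Log2 difference, heterozygous minus wild type, of each gene (orange, place 0) and of the 5 named and tested genes on either side in gene order (grey, or black where adjusted p is under 0.05). Ntmt1, at -0.30 beside 1700001O22Rik, is the only black bar, and the other neighbours lie between -0.21 and 0.24.

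Genes known to work with the 6 were taken as lists by function and not by how they moved. Across 5 lists, 38 genes were tested and 2 passed, 5.26% against 3.11% of all tested probe sets. Of 7 genes for Neto2 (its paralogue Neto1, kainate receptor subunits and the chloride transporter Slc12a5), 5 were tested and none passed (limma; 1 at an unadjusted p under 0.05), with a median difference of -0.01. Neto1 measured 7.12, 7.21 and 7.16 in heterozygous mice, against 7.02, 7.03 and 6.98 in wild-type mice, with no overlap and with the opposite sign to Neto2. Its difference of 0.15 ± 0.04 (SE; 95% confidence interval 0.06 to 0.24) did not pass (limma, adjusted p = 0.0799). The receptor subunit gene Grik4 had a difference of -0.07 (limma, adjusted p = 0.366), and Grik1 and Grik2 were below the brightness limit.

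Of 7 measured genes of the Cd24a list, ligands and signalling partners, 5 were tested and none passed (limma; 2 at an unadjusted p under 0.05), all 5 with a negative difference and a median of -0.05. Selp, P-selectin, measured 6.71, 6.62 and 6.58 in heterozygous mice, against 7.08, 6.88 and 6.70 in wild-type mice, a difference of -0.25 ± 0.09 (SE) with overlap between the groups. It had an adjusted p of 0.158 (limma), and 0.0493 with the mouse number as a block, and its difference was -0.15 without wild-type mouse 1. Its heterozygous mean of 6.64 lay below the brightness limit of 6.74. Only its wild-type values, with a mean of 6.89, brought it into the test. Ptpn11, a phosphatase that binds Siglec tails, had a difference of -0.17 (limma, adjusted p = 0.0927), and Siglecg of -0.03.

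Of 12 measured genes of the Cntnap2 family and its complex at the axon, 6 were tested and none passed (limma; 0 at an unadjusted p under 0.05). Cntnap1, which anchors glia to the axon beside the node, had a difference of -0.10 with an interval of -0.25 to 0.04, and the scaffold gene Epb41l3 of 0.08 (limma, adjusted p = 0.397 and 0.293). Kcnab1, a potassium channel subunit, had a difference of -0.12 (limma, adjusted p = 0.345), which was -0.05 without heterozygous mouse 2. That of Cntnap1 was -0.06 without wild-type mouse 1 and -0.17 without wild-type mouse 2. The other 6 were below the brightness limit, among them the contactins Cntn1 and Cntn2 and the potassium channel subunit Kcna2. Without that limit Lgi1, a secreted partner of this complex named here after its values were seen, passed: it measured 6.85, 6.78 and 6.70 in heterozygous mice, against 6.48, 6.52 and 6.45 in wild-type mice (log2 difference 0.29 ± 0.04, SE; limma, adjusted p = 0.0182).

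Markers of Schwann cells and nerve are given beside Cntnap2, an axonal gene. None of the 8 tested passed (limma; 5 at an unadjusted p under 0.05), all 8 differences were positive with a median of 0.22, and the groups did not overlap for 3 of them. Over all tested probe sets, 20.5% had an unadjusted p under 0.05 and 26.3% had groups that did not overlap. Mag, a myelin protein, had a difference of 0.16 (limma, adjusted p = 0.0722), Ncmap, a myelin-associated protein, of 0.27 (0.145) and Mbp, the myelin basic protein, of 0.37 (0.147). The summed linear signal of the 10 measured markers was 2606 to 3523 in heterozygous and 2093 to 2611 in wild-type mice. Pmp22 was the brightest of these and weighed most in the sum. It measured 10.81, 10.12 and 10.15 in heterozygous mice, against 9.94, 10.19 and 9.64 in wild-type mice. Its difference of 0.44 (limma, adjusted p = 0.248), the largest on the list, was 0.21 without heterozygous mouse 1. Heterozygous mouse 1 had the highest sum, 3523, and the lowest Cntnap2 value of its group, while the sums of heterozygous mice 2 and 3 were 2606 and 2612. Without mouse 1 the median difference was 0.15, that of Ncmap 0.16 and that of Mbp 0.24. Of 10 neuron markers 8 were below the brightness limit, among them Snap25 and Rbfox3, Uchl1 had a difference of -0.07 (limma, adjusted p = 0.561), and Stmn2 fell by 0.19 on the log2 scale (limma, adjusted p = 0.0477, and 0.0556 with the mouse number as a block). Stmn2 passed without heterozygous mouse 1 and missed the threshold without any other mouse, at adjusted p of 0.084 to 0.141 (limma). The part of nerve content in the Cntnap2 difference was not tested.

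Of 15 tested genes around Arl2bp, 1 fell, none rose and 14 did not pass, with a median difference of 0.01. An unadjusted p under 0.05 was found for 2 of the 15 (limma), beside 20.5% of all tested probe sets. Elmod3, of a family that speeds GTP hydrolysis by ARL2, measured 7.45, 7.43 and 7.43 in heterozygous mice, against 7.64, 7.63 and 7.59 in wild-type mice. The groups did not overlap, and the log2 difference was -0.19 ± 0.03 (SE; limma, adjusted p = 0.0326). It passed without heterozygous mouse 1 and missed the threshold without any other mouse, at adjusted p of 0.063 to 0.108 (limma). Arl2 and Arl3, the GTPases that Arl2bp binds, had differences of 0.07 and 0.02 (limma, adjusted p = 0.372 and 0.865), with intervals of -0.02 to 0.16 and -0.11 to 0.16. Stat3, another binding partner, had a difference of 0.04 and Pde6d, which carries lipid-tailed proteins for ARL2 and ARL3, of -0.17 (limma, adjusted p = 0.162). The differences of Arl3 and Stat3, both near 0, turned negative with single mice left out (Arl3 to -0.02 without heterozygous or wild-type mouse 3, Stat3 to -0.04 without heterozygous mouse 1).

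Of 15 measured genes around Cdc14a, 8 cell division genes were below the brightness limit, among them Cdk1, Ccnb2 and Aurkb, and 7 were tested. Of these Wee1 rose, none fell and 6 did not pass, with a median difference of 0.0. An unadjusted p under 0.05 was found for 4 of the 7 (limma), beside 20.5% of all tested probe sets. Their differences went both ways, with Wee1 and Cdc20 (0.10) positive and Cdc25a and Fzr1 (-0.12) negative. The groups did not overlap for 4 of the 7, beside 26.3% of all tested probe sets. Wee1, the kinase that holds CDK1 inactive, measured 7.72, 7.81 and 7.93 in heterozygous mice, against 7.40, 7.44 and 7.47 in wild-type mice, 1.30-fold higher (log2 difference 0.38 ± 0.06, SE; limma, adjusted p = 0.0141). The groups did not overlap, and Wee1 missed the threshold with heterozygous mouse 2 left out (limma, adjusted p = 0.0518), and likewise for wild-type mouse 1 (0.0605) or 2 (0.0572). Cdc25a, a phosphatase that activates CDKs, had a difference of -0.15 (limma, adjusted p = 0.0935). The paralogue Cdc14b measured 8.04, 8.07 and 8.15 in heterozygous mice, against 8.14, 8.03 and 8.06 in wild-type mice. These values overlapped, and the difference of 0.01 had an interval of -0.09 to 0.12. The sign of that small difference turned without heterozygous mouse 3 or wild-type mouse 2.

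Markers of B cells and epithelia, which carry Cd24a elsewhere, and of other cells are given beside Cd24a. Of 6 measured B cell markers 4 were below the brightness limit, including Cd79b and Ms4a1, and of 6 epithelial markers also 4, including Epcam and Krt8. The B cell markers summed to 666 to 689 in heterozygous and 684 to 698 in wild-type mice, and the epithelial markers to 607 to 673 in heterozygous and 585 to 606 in wild-type mice. With 4 of 6 genes below the limit in each, these sums do not measure cell content, and how much of them is background was not tested. None of the tested B cell genes passed, Vpreb3 and Blnk, with differences of 0.07 and 0.05, nor did the tested epithelial genes Cldn4 and Krt18, both at 0.13 (limma; 0 and 1 at an unadjusted p under 0.05). The value for Krt18 was 0.02 without heterozygous mouse 1. Without the brightness limit Pax5, a B cell transcription factor named here after its values were seen, passed (6.46, 6.50 and 6.46 in heterozygous mice, against 6.67, 6.74 and 6.70 in wild-type mice; limma, adjusted p = 0.0185). Other leukocyte markers summed to 3093 to 3269 in heterozygous and 3003 to 4036 in wild-type mice, with none of 8 passing (limma; 2 at an unadjusted p under 0.05). The neutrophil genes S100a8 and S100a9 had differences of -0.58 and -0.65 (limma, adjusted p = 0.164 and 0.21). Without wild-type mouse 1, the highest for both, they were -0.32 and -0.33. Of 9 endothelial markers Egfl7 fell (log2 difference -0.25; limma, adjusted p = 0.0271), and the median was -0.13, with sums of 2751 to 3138 in heterozygous and 3083 to 3384 in wild-type mice. An unadjusted p under 0.05 was found for 5 of the 9 (limma), beside 20.5% of all tested probe sets. The groups did not overlap for 4 of them, beside 26.3%. Differences were negative for 7 and positive for 2, Esam and Pecam1 (both 0.02). The largest was that of Cldn5, -0.39 (limma, adjusted p = 0.0643, and 0.0184 with the mouse number as a block). Egfl7 passed without heterozygous mouse 1 and missed the threshold without any other mouse, at adjusted p of 0.0694 to 0.091 (limma). Kdr, the VEGF receptor, had a difference of -0.25 (limma, adjusted p = 0.0575, and 0.0174 with the mouse number as a block), and passed without heterozygous mouse 1 (0.0258). None of 6 tested satellite cell markers passed (limma; 1 at an unadjusted p under 0.05), and the stem cell marker Pax7 was below the limit. Myod1 had a difference of 0.35 (limma, adjusted p = 0.0612, 0.0368 with the block and 0.0252 without wild-type mouse 3) and Heyl of -0.07. The part of these cells in the Cd24a difference was not tested.

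**Figure D4:**
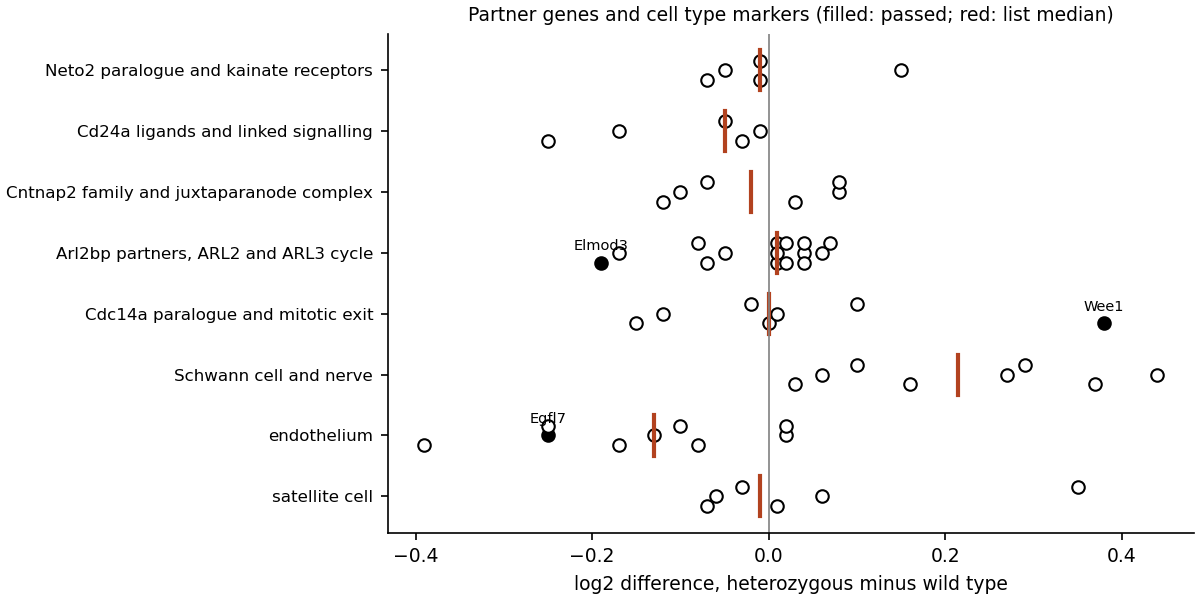
Log2 difference, heterozygous minus wild type, of the tested genes on each partner list and on 3 marker lists, with filled circles where adjusted p is under 0.05 and a red line at the list's median. Elmod3, Wee1 and Egfl7 are the filled circles, and the Schwann cell and nerve markers all lie right of 0.

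The remaining marker lists held no call. None of 9 tested fibroblast genes passed (limma; 2 at an unadjusted p under 0.05), with Col1a2 at 0.61 (adjusted p = 0.131, and 0.0475 with the mouse number as a block) and Col1a1 at 0.39 (0.157). Without wild-type mouse 3, the lowest for both, these were 0.36 and 0.22. Of the 9 fibroblast genes 4 had negative differences, among them Col3a1 at -0.08 and Pi16 at -0.09, and the list's median was 0.05. None of 6 adipocyte genes passed (limma; 3 at an unadjusted p under 0.05), with Fabp4 at -0.22 (adjusted p = 0.0676, and 0.0364 with the block) and Lep at 0.52 (0.108). Without heterozygous mouse 1, the highest for Lep, its difference was 0.31 and passed (limma, adjusted p = 0.0347). The only red cell gene tested, Alas2, did not pass (limma; 0 at an unadjusted p under 0.05). Over all markers of other cell types, 53 genes were tested and 2, Stmn2 and Egfl7, passed, 3.77% against 3.11% of all tested probe sets. An unadjusted p under 0.05 was found for 20 of the 53 (limma), 37.7% against 20.5% of all tested probe sets. With the mouse number as a block 6 passed, 11.3% against 4.95%.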

How the data were processed

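The deposited table holds log2 expression values per probe set, 1 column per array and none unused. The labels name Trizol and Qiagen for extraction and Affymetrix labelling. Not given in the sources used here were the probe summarisation and the genome build. Every array held the same set of values once sorted (largest difference 0), so a shift common to all transcripts would not be seen. Of 16556 entries 64 are controls, and 15270 gene probe sets have 1 symbol and 1222 none. A symbol was updated through its Entrez identifier in RefSeq's GRCm38.p6 table, where all 15270 were found.

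Probe sets with a mean above the 30th percentile (6.74) entered lmFit and eBayes of limma 3.58.1 (R 4.3.3), heterozygous minus wild type, unpaired, with Benjamini-Hochberg adjustment over all 11544 and a threshold of 0.05. Errors are SD for groups and limma's SE for differences. The fit was tested on simulated data. The genes, lists and naming rule were chosen with earlier results of these data known. Named were the 6 genes, their 2 nearest profiles, paralogues, list and neighbour genes that passed, the 2 smallest p per list, and Neb; further list members and Itfg1 were named after their values were seen. Alternatives were leaving out each mouse, the mouse number as a block, cyclic loess, median centring, other brightness limits, trended variances, array weights and 10 neighbours per side.

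Same-numbered mice deviated together from their group means (r = 0.187, 0.234 and 0.129, each above 0.1), though the labels give no shared litter or day.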

Additional observations from a re-analysis of the deposited data

How the results depend on the processing

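The differences of the 6 genes moved by less than 1 SD between replicates, with no change of sign, under each alternative run: each mouse left out, the replicate block, cyclic loess, median centring, array weights and group medians. The number of probe sets called was 359, from 84 to 503 with 1 mouse left out and 572 with the mouse number as a replicate block. With that pairing block the Cd24a list had 1 call (main 0), Selp, which was tested only through its wild-type values. Markers of other cell types had 6 calls (main 2) and the 60 neighbours had 4 (main 1). The count on no other partner list changed with the block. Without a brightness limit the Cntnap2 list had 1 call (main 0), while a limit at the 50th percentile left 1 marker call. Array weights gave 5 marker calls and 2 neighbour calls, and trended, robust variances gave 2 neighbour calls. The totals called over all tested probe sets were 381 without a limit and 337 with that at the 50th percentile. They were 483 with array weights and 391 with trended, robust variances. With 10 genes on either side, 4 of 120 neighbours passed, beside 3.11% of all tested probe sets: Ntmt1, Mt1 and Mt2 near Arl2bp, and Palmd near Cdc14a. With 1 mouse left out the calls ranged from 0 to 1 on the Arl2bp and Cdc14a lists, from 0 to 5 among markers and from 0 to 5 among neighbours. These are counts of few calls near the threshold, and the cause of their changes was not tested. The difference near 0 of Cdc14b turned sign (-0.02 without heterozygous mouse 3, -0.01 without wild-type mouse 2, up to 0.05 otherwise). That of Alas2, 0.19 with all mice, was -0.07 without heterozygous mouse 3, the highest for this gene at 8.53, and up to 0.38 otherwise. Other small differences, among them those of Arl3, Stat3 and Col3a1, also turned sign with a mouse left out. With 3 arrays per group and 1 probe set per gene, cross-hybridisation and probes that differ between transcripts could not be assessed.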
